A study of Mus musculus with 12 samples.

Results

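Transcript levels of 35 genes of glycolysis and of the hypoxia response were compared between hearts of mouse embryos at stage E8.75. The genes were listed by symbol and fell into 23 glycolysis genes (glucose and lactate carriers, the enzymes of the pathway and its regulators) and 12 other targets of the hypoxia-inducible factors (HIF). A gene was read from the probe set that carried its symbol alone, and from the brightest of these where it had several. On that rule 32 of the 35 were measured, 20 of the 23 glycolysis genes and all 12 HIF targets, out of 19938 genes measured in all. Gpi1, Gapdh and Eno1 had no probe set with their symbol alone and have no value here.

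The study hybridized Affymetrix arrays with RNA from dissected hearts of 4 genotypes, with 3 arrays each. The genotypes were Nkx2-5 KO, Tbx5 KO, Tbx5 KO;Nkx2-5 KO (called double KO here) and WT. Nkx2-5 and Tbx5 are transcription factors of the heart muscle lineage, so the design compares each single loss, and both together, with intact hearts. The labels number the arrays as biological replicates and do not state the alleles, the strain, the sex or whether embryos were pooled. Values are the deposited log2 levels, in which 1 unit is a doubling, and a change is the difference between 2 group means. Changes are followed by ± their standard error (SE) from a limma fit over all 12 arrays, with 3 arrays in each group. The fit holds 1 spread per gene for all groups, so an SE does not show where 1 group varied more than another. A gene was called changed when its Benjamini-Hochberg adjusted p, taken across all 19938 genes, was under 0.05. In whole hearts, fewer cells of a type and less RNA per cell cannot be told apart.

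Glycolysis turns glucose into pyruvate and, through lactate dehydrogenase, into lactate, and it yields energy without oxygen. The HIF alpha subunits are hydroxylated on prolines by the Egln enzymes when oxygen is present and are then destroyed. At low oxygen they persist, pair with Arnt and bind DNA at a short core, ACGTG or GCGTG. Their targets include most glycolytic genes, and also Egln1 and Egln3, which feed back on HIF itself. The heart of the early embryo beats before it has coronary vessels and relies strongly on glycolysis.

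Several facts of the whole data set touch the results. Heart muscle markers were bright in all groups, with a log2 summed signal of 16.8 to 16.9 on every array. Other lists held dim markers, such as the neural Zic1, with group means of 6.29 to 6.45, and the trophoblast Tpbpa, at 5.48 in WT. Whether such dim markers were detected was not tested. Xist, the X-inactivation RNA of female cells, read 6.59 to 7.03 on the Nkx2-5 KO arrays and 6.44 to 8.16 on the double KO arrays, against 11.5 to 12.3 on the Tbx5 KO arrays and 11.5 to 11.9 on the WT arrays. The Y-linked gene Eif2s3y ran the opposite way, at 10.3 to 10.7 in Nkx2-5 KO, 10.4 to 10.6 in double KO and 5.13 to 5.68 in Tbx5 KO. On the WT arrays it read 5.07, 5.26 and 6.92, and the Y-linked Uty 5.38, 5.61 and 6.67. The sex signature and the loss of Nkx2-5 thus cannot be told apart in these arrays. The comparisons of Tbx5 KO with WT and of double KO with Nkx2-5 KO are each broadly within 1 signature. The exceptions are the Y-linked values of WT replicate 3 and Xist on double KO replicates 1 and 2 (7.69 and 8.16). Whether any array held RNA of both sexes was not tested. Nkx2-5 fell by 0.41 ± 0.11 in Nkx2-5 KO (adjusted p 0.0499) and changed by -0.27 ± 0.11 in double KO (adjusted p 0.0878), and Tbx5 changed by 0.47 ± 0.15 in Tbx5 KO (adjusted p 0.127) and in double KO rose by 0.54 ± 0.15 (adjusted p 0.0193). The deleted parts are not stated, so these probe sets do not check the genotypes.

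Promoter sequences show the DNA core through which HIF is known to act. RefSeq windows of 300 bases around the gene start (assembly GRCm38.p6) were found for 33 of the 35 genes, 50 windows in all, but not for Slc2a3 and Ndrg1. The core ACGTG or GCGTG, on either strand, was present in 80.0% of the 50 windows and in 43.8% of all 32851 windows in the table. ACGTG alone was present in 52.0% and 19.6%. By class, 12 of 15 windows of HIF targets and 28 of 35 windows of glycolysis genes held a core. The windows were also richer in G and C, at a median of 61.8%, against 52.7% over all windows, and the part of base composition in the difference was not tested. The 6 windows below were picked after the levels were seen, because they set genes that rose (Egln3, P4ha2, Ankrd37, Car9 and Hk2) beside Ldha, which was not called in any comparison. They run 5′ to 3′ in the direction of the gene, and capitals mark the cores, written as CACGT or CACGC where they lie on the other strand. Cores that overlap run together as 1 stretch of capitals.
Egln3, chr12:54203825-54204124, minus strand: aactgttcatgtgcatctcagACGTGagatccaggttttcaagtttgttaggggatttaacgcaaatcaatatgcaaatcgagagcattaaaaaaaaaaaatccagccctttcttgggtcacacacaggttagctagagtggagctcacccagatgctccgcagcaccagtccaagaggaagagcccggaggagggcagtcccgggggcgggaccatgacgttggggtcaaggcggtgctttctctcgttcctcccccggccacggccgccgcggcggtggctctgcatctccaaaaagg
P4ha2, chr11:54100674-54100973, plus strand: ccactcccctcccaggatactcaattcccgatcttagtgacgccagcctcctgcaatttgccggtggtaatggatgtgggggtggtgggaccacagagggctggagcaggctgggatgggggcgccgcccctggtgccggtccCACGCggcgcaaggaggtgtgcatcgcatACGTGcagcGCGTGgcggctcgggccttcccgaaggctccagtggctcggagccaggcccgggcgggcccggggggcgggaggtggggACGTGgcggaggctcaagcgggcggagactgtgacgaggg
Ankrd37, chr8:45999801-46000100, minus strand: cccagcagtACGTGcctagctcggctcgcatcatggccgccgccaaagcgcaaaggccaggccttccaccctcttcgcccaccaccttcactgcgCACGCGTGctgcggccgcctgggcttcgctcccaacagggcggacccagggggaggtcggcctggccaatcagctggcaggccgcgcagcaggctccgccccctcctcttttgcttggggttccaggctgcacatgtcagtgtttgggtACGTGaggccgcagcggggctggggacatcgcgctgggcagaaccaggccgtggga
Car9, chr4:43506776-43507075, plus strand: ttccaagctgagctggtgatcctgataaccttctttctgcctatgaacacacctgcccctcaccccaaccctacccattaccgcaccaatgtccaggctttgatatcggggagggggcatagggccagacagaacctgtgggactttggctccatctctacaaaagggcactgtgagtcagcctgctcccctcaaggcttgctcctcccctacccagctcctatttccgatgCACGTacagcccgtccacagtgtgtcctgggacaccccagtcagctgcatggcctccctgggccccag
Hk2, chr6:82774405-82774704, minus strand: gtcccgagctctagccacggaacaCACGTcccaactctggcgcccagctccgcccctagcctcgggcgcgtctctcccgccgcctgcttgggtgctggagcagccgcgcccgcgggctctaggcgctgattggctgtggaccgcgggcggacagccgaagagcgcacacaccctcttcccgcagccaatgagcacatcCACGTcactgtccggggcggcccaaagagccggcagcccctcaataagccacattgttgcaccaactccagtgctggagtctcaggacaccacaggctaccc
Ldha, chr7:46845554-46845853, plus strand: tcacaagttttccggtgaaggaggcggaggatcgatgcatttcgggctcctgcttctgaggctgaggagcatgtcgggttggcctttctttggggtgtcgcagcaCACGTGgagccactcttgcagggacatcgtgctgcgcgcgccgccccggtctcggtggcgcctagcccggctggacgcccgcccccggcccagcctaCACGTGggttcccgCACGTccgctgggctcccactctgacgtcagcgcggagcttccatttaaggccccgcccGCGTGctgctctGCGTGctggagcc
A core says only that these letters are present. Ldha has 2 windows in the table, and the one with more cores is shown. It held 7 cores, of which 4 lay inside the palindrome CACGTG. Each copy of CACGTG reads as a core on both strands and so counts as 2. The other Ldha window held 2 cores and 0 inside CACGTG. The Ankrd37 and P4ha2 windows held 4 each, the Hk2 window 2, and the Egln3 and Car9 windows 1 each.

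The HIF targets and the glycolysis genes differed in how far they moved. Over the 12 HIF targets the median change from WT was 0.92 for Nkx2-5 KO, 0.52 for Tbx5 KO and 1.09 for double KO. The 20 glycolysis genes had medians of 0.24, 0.19 and 0.17 in the same order, and all 19938 genes had medians of 0.00, 0.01 and 0.06. Pgk1, Aldoa, Ldha, Hk1 and Tpi1, glycolysis genes with small changes, averaged 13.2 to 13.8 over the 12 arrays. The highest value on any array was 14.7. Slc2a1 (13.4) was as bright, as was Bnip3 alone (13.2) of the HIF targets. Pfkfb4 (7.32) and Pfkm (9.71) were dimmer and were not called. The part of signal level in the difference between the classes was not tested. In Nkx2-5 KO hearts, 7 of 12 HIF targets and 5 of 20 glycolysis genes were called higher and none lower, where 1.84% of all genes were called higher and 2.59% lower. In double KO hearts, 10 of 12 HIF targets and 9 of 20 glycolysis genes were called higher, and 1 glycolysis gene, Ldhb, lower. The shares of all genes there were 9.05% higher and 14.4% lower. In Tbx5 KO hearts, 2 glycolysis genes were called higher, where 0.998% of all genes were called higher and 1.31% lower. No HIF target was called by limma in Tbx5 KO (0 of 12), although all 12 changes were above 0 and 4 had an unadjusted p under 0.05. Of all 19938 genes, 10471 changes were above 0 there, and 1266 of these had an unadjusted p under 0.05. The 3 comparisons share the WT arrays.

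**Figure D1:**
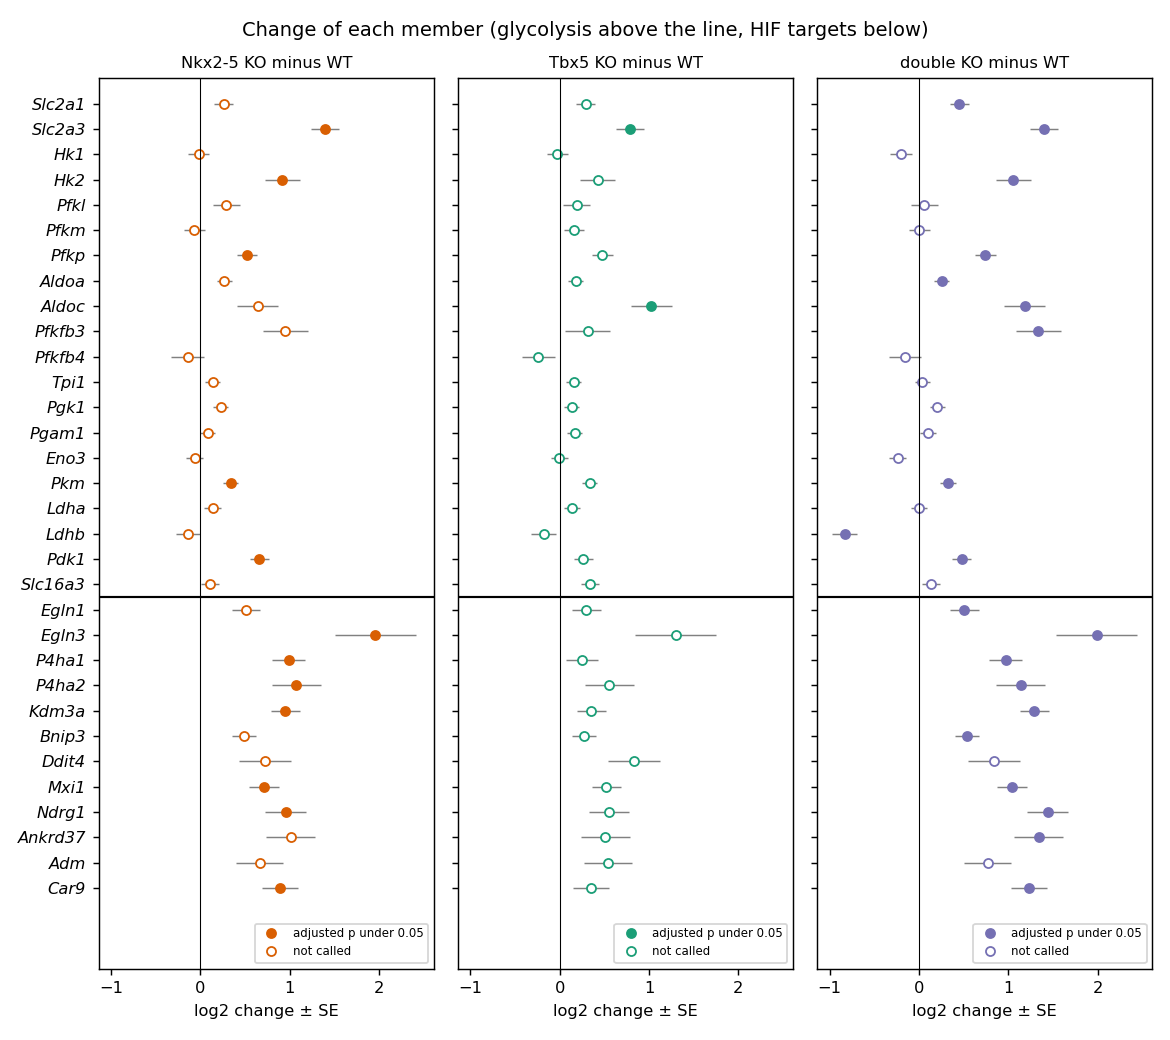
Change of each of the 32 measured genes from WT (x axis, log2 units, with SE as bars) in the panels Nkx2-5 KO, Tbx5 KO and double KO, from left to right; filled points were called and open points were not. Among the HIF targets, below the line, 7 points are filled for Nkx2-5 KO, 0 for Tbx5 KO and 10 for double KO, and Egln3 lies farthest to the right in each panel.

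Full separation of the arrays from WT was counted as well. Every Nkx2-5 KO array lay above every WT array for 11 of 12 HIF targets and 10 of 20 glycolysis genes, where this held for 10.6% of all genes. The same was true of the double KO arrays for 12 of 12 and 10 of 20, beside 22.4% of all genes. For the Tbx5 KO arrays it held for 0 of 12 HIF targets and 11 of 20 glycolysis genes, beside 9.72% of all genes. The Tbx5 KO arrays thus overlapped WT for every HIF target and did not for 11 glycolysis genes, among them Aldoc and Slc2a3.

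**Figure D2:**
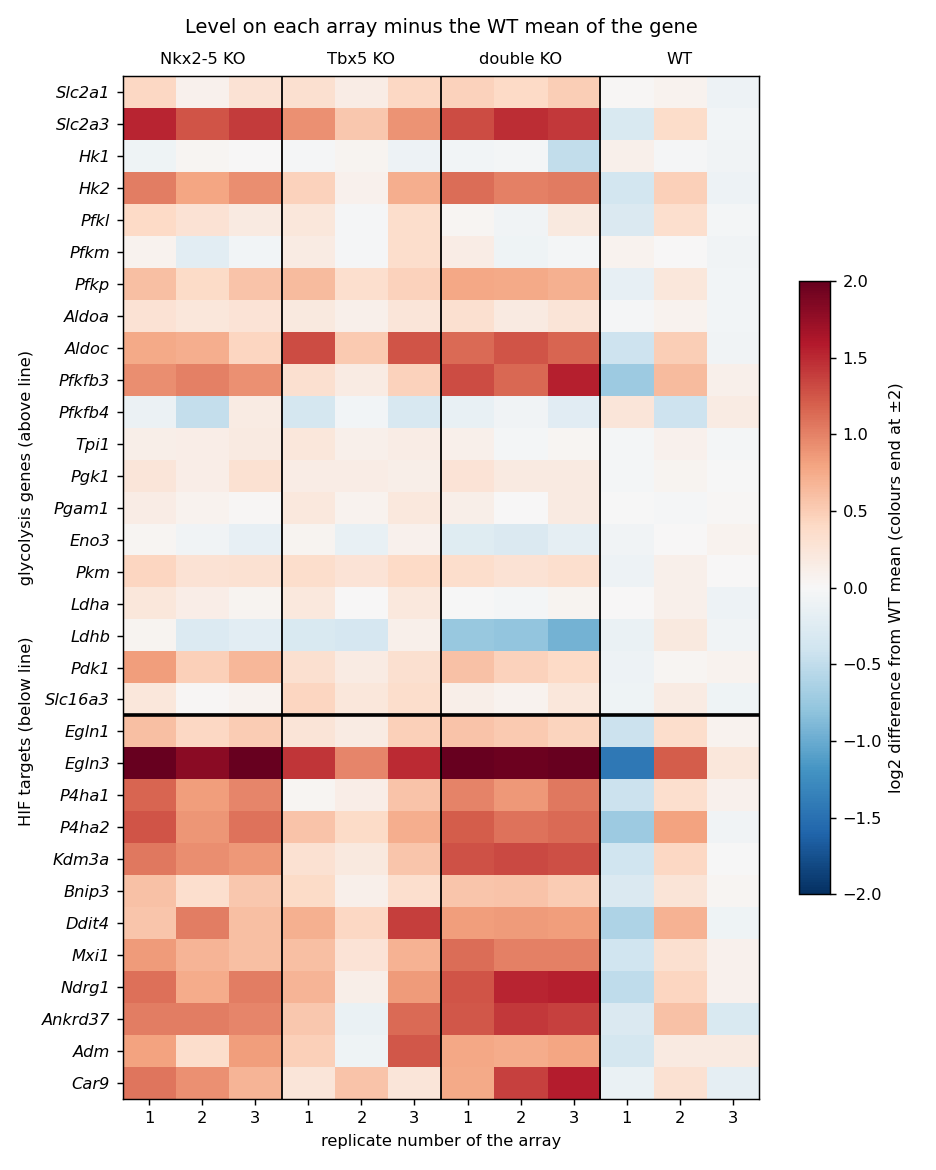
Level of each gene on each of the 12 arrays minus the WT mean of that gene (colour, log2 units, ending at ±2), with Nkx2-5 KO, Tbx5 KO, double KO and WT from left to right and glycolysis genes above HIF targets. WT replicate 1 is blue and WT replicate 2 red for most HIF targets, while all 3 double KO arrays are above the WT mean for the 12 HIF targets; among the glycolysis genes Hk1, Pfkfb4, Eno3 and Ldhb are below it on all 3.

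The WT hearts differed among themselves in these genes, and this sets what the comparisons can show. The mean over the 12 HIF targets, set against the WT gene means, was 1.01, 0.83 and 0.89 on the Nkx2-5 KO arrays, 0.52, 0.26 and 0.81 on the Tbx5 KO arrays, 1.05, 1.10 and 1.13 on the double KO arrays, and -0.50, 0.49 and 0.01 on the WT arrays. WT replicate 1 was the lowest of all 12 arrays for 10 of 12 HIF targets, as it was for 11.5% of all genes, and WT replicate 2 was the highest WT array for 11 of 12. Tbx5 KO replicate 2 was the lowest of its group for 10 of 12, and replicate 3 the highest for 10 of 12. Tbx5 KO replicate 2 lay below WT replicate 2 in this class mean. The median SD of a HIF target was 0.15 in Nkx2-5 KO, 0.25 in Tbx5 KO, 0.07 in double KO and 0.40 in WT, while over all genes it was 0.13 in each group. The class mean of the glycolysis genes spanned less, from 0.25 to 0.41 in Nkx2-5 KO, 0.12 to 0.33 in Tbx5 KO, 0.29 to 0.35 in double KO and -0.12 to 0.15 in WT. Over all genes it stayed between -0.03 and 0.02 on every array. The lowest and highest WT arrays were the same for both classes. Marker lists of other cells shared that order in part. WT replicate 1 was the lowest and WT replicate 2 the highest WT array for 8 of 8 markers of endocardium and endothelium, for 6 of 7 immediate early genes at either end and for 3 of 4 markers of proepicardium and epicardium at either end. WT replicate 2 was the lowest WT array for 6 of 6 erythroid markers. Over all genes, WT replicate 1 was the lowest WT array for 34.2% and WT replicate 2 for 38.9%. The part of these cells in the WT spread of the HIF targets was not tested.

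**Figure D3:**
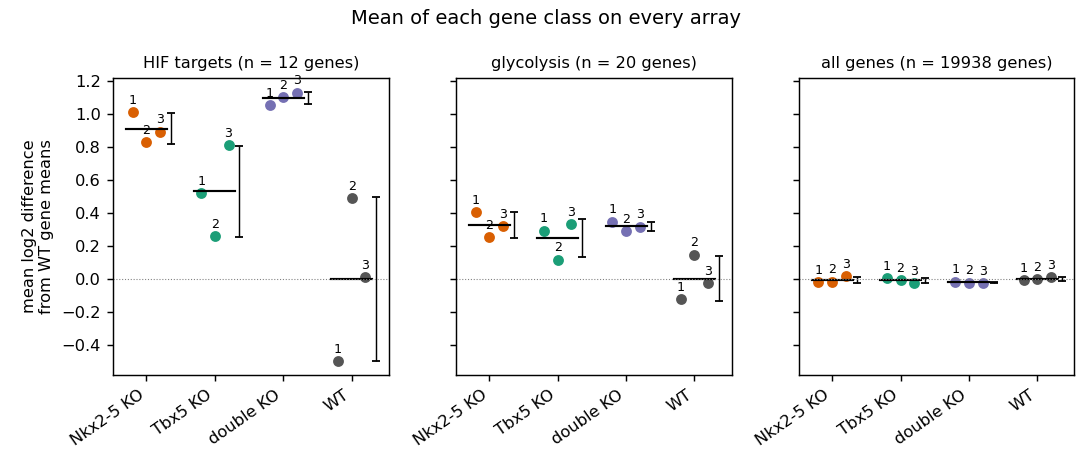
Mean over the genes of a class of the level minus the WT mean (y axis, log2 units) for each array, numbered by replicate, with group means as lines and SDs as bars; HIF targets, glycolysis genes and all genes from left to right. The 3 WT points of the HIF targets run from -0.50 to 0.49, the 3 double KO points from 1.05 to 1.13, and all genes stay near 0.

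Single arrays moved the counts of calls. Without WT replicate 1 the HIF targets called were 3 for Nkx2-5 KO, 0 for Tbx5 KO and 9 for double KO. Without WT replicate 2 they were 11, 4 and 11, and without WT replicate 3 they were 2, 0 and 9. Leaving out Nkx2-5 KO replicate 1 left 0 HIF targets called in Nkx2-5 KO, leaving out replicate 2 left 3 and leaving out replicate 3 left 2. Calls over all genes in Nkx2-5 KO went from 884 to 240, 903 and 335 without WT replicates 1, 2 and 3. They went to 169, 835 and 346 without Nkx2-5 KO replicates 1, 2 and 3. Without the WT arrays in turn they went from 461 to 256, 465 and 212 in Tbx5 KO. In double KO they went from 4672 to 3496, 3905 and 3783. Most of these removals thus lowered the calls over all genes too. The median change of the HIF targets without each WT array in turn ran from 0.71 to 1.11 in Nkx2-5 KO, 0.29 to 0.65 in Tbx5 KO and 0.81 to 1.30 in double KO. For the glycolysis genes, leaving out WT replicate 1, 2 or 3 gave 2, 7 and 2 calls in Nkx2-5 KO, 0, 3 and 0 in Tbx5 KO and 8, 9 and 9 in double KO. Leaving out Nkx2-5 KO replicate 1 or 3 gave 2 in Nkx2-5 KO, and leaving out Tbx5 KO replicate 1 or 3 gave 0 and double KO replicate 2 gave 1 in Tbx5 KO. Calls over all genes in these Tbx5 KO fits were 216, 246 and 430. The double KO counts were the steadiest, at 9 to 12 HIF targets and 8 to 10 glycolysis genes over the 12 fits that each left out 1 array. Over all genes the double KO calls in these fits ran from 3254 to 4751.

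Of the HIF prolyl hydroxylases, which mark HIF for destruction, Egln1 and Egln3 were higher in double KO, and Egln3 also in Nkx2-5 KO. Their relative Egln2, which is not among the 35 genes, was not called, with changes of -0.04 ± 0.12 for Nkx2-5 KO, -0.28 ± 0.12 for Tbx5 KO and 0.01 ± 0.12 for double KO. Egln3 read 11.35, 11.08 and 11.25 on the Nkx2-5 KO arrays, 10.69, 10.25 and 10.77 on the Tbx5 KO arrays, 11.30, 11.22 and 11.26 on the double KO arrays, and 7.84, 10.47 and 9.49 on the WT arrays. All 6 arrays without Nkx2-5 lay above WT, and the Tbx5 KO arrays overlapped the highest WT array. Egln3 rose by 1.96 ± 0.45 in Nkx2-5 KO (3.89-fold, adjusted p 0.0303) and by 1.99 ± 0.45 in double KO (3.98-fold, adjusted p 0.00694), and its change of 1.30 ± 0.45 in Tbx5 KO was not called (adjusted p 0.175). The WT SD of 1.33 log2 units lies behind these wide errors. The Nkx2-5 KO call ended without WT replicate 3 and without any 1 of the Nkx2-5 KO arrays (adjusted p up to 0.111). Egln1, the main oxygen sensor of the family, averaged 12.35 ± 0.10 in Nkx2-5 KO, 12.14 ± 0.16 in Tbx5 KO, 12.35 ± 0.07 in double KO and 11.84 ± 0.39 in WT (SD, n = 3 each). It was called in double KO only (0.51 ± 0.16, adjusted p 0.0372), and with the same change of 0.51 ± 0.16 it missed the threshold in Nkx2-5 KO (adjusted p 0.0977). The double KO call ended when WT replicate 1 or 3, Tbx5 KO replicate 1 or any double KO array was left out (adjusted p up to 0.134).

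P4ha1 and P4ha2, the catalytic subunits of collagen prolyl hydroxylase, and Kdm3a, a histone demethylase, were higher in Nkx2-5 KO and in double KO. P4ha1 read 12.20, 11.88 and 12.02 on the Nkx2-5 KO arrays, 11.09, 11.18 and 11.62 on the Tbx5 KO arrays, 12.04, 11.91 and 12.09 on the double KO arrays, and 10.62, 11.38 and 11.13 on the WT arrays. The Nkx2-5 KO and double KO arrays lay together above the rest, and Tbx5 KO overlapped WT. P4ha1 rose by 0.99 ± 0.18 in Nkx2-5 KO (adjusted p 0.0129) and by 0.97 ± 0.18 in double KO (adjusted p 0.00218), against a change of 0.25 ± 0.18 in Tbx5 KO (adjusted p 0.604). Kdm3a read 11.82, 11.70 and 11.64 on the Nkx2-5 KO arrays, 11.07, 10.97 and 11.33 on the Tbx5 KO arrays, 12.03, 12.09 and 12.06 on the double KO arrays, and 10.37, 11.17 and 10.76 on the WT arrays. Its double KO arrays lay above every other array. Kdm3a rose by 0.95 ± 0.17 in Nkx2-5 KO (adjusted p 0.00937) and by 1.29 ± 0.17 in double KO (2.45-fold, adjusted p 0.000173). The Nkx2-5 KO calls of P4ha1 and Kdm3a ended without Nkx2-5 KO replicate 1 (adjusted p 0.0652 and 0.0562). P4ha2 averaged 11.79 ± 0.18 in Nkx2-5 KO, 11.27 ± 0.17 in Tbx5 KO, 11.85 ± 0.07 in double KO and 10.71 ± 0.77 in WT (SD, n = 3 each). It rose by 1.07 ± 0.27 in Nkx2-5 KO (adjusted p 0.0468) and by 1.14 ± 0.27 in double KO (adjusted p 0.00955). The Nkx2-5 KO call of P4ha2 ended in 14 of the 21 alternatives, among them the removal of any array except WT replicate 2 (adjusted p up to 0.166).

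Among the 5 targets that act in stress, mitophagy and growth control, Mxi1 and Ndrg1 were called in Nkx2-5 KO and all but Ddit4 in double KO. Mxi1, an antagonist of Myc, read 10.38, 10.22 and 10.14 on the Nkx2-5 KO arrays, 10.14, 9.82 and 10.23 on the Tbx5 KO arrays, 10.66, 10.54 and 10.54 on the double KO arrays, and 9.13, 9.86 and 9.62 on the WT arrays. Of the Tbx5 KO arrays only replicate 2 fell among the WT values. Mxi1 rose by 0.71 ± 0.16 in Nkx2-5 KO (adjusted p 0.0301) and by 1.04 ± 0.16 in double KO (adjusted p 0.000655), but changed by 0.52 ± 0.16 in Tbx5 KO (adjusted p 0.128). Ndrg1, a gene of growth arrest and stress, read 9.58, 9.22 and 9.50 on the Nkx2-5 KO arrays, 9.16, 8.60 and 9.34 on the Tbx5 KO arrays, 9.73, 10.01 and 10.03 on the double KO arrays, and 7.97, 8.91 and 8.56 on the WT arrays. Its double KO arrays were again the highest of all. Ndrg1 rose by 0.95 ± 0.23 in Nkx2-5 KO (adjusted p 0.0356) and by 1.44 ± 0.23 in double KO (2.72-fold, adjusted p 0.000668). The Nkx2-5 KO calls of Mxi1 and Ndrg1 ended without any 1 of WT replicates 1 and 3 and Nkx2-5 KO replicates 1 and 3, and that of Mxi1 also without Nkx2-5 KO replicate 2 (adjusted p up to 0.125 for Mxi1 and 0.136 for Ndrg1).

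Ankrd37, an ankyrin repeat protein known as a direct HIF target, read 11.16, 11.16 and 11.12 on the Nkx2-5 KO arrays, 10.68 and 11.27 on Tbx5 KO replicates 1 and 3, 11.39, 11.55 and 11.50 on the double KO arrays, and 9.85, 10.73 and 9.83 on the WT arrays. The Tbx5 KO mean was 10.65 ± 0.63 (SD, n = 3), with replicate 2 inside the WT values. The Nkx2-5 KO arrays of Ankrd37 all lay above WT, yet the change of 1.01 ± 0.28 missed the threshold (adjusted p 0.0591), and only the double KO rise of 1.34 ± 0.28 was called (adjusted p 0.00385). Bnip3, a receptor for the removal of mitochondria, averaged 13.39 ± 0.13 in Nkx2-5 KO, 13.18 ± 0.16 in Tbx5 KO, 13.44 ± 0.03 in double KO and 12.90 ± 0.28 in WT (SD, n = 3 each). It rose by 0.54 ± 0.13 in double KO (adjusted p 0.0111). The Bnip3 probe set is numbered among those of chromosome 14, while the gene lies on chromosome 7, so a near-identical copy may share its signal. A second Bnip3 probe set, numbered among its own chromosome, gave 0.64 ± 0.16 in Nkx2-5 KO (adjusted p 0.0403) and 0.74 ± 0.16 in double KO (adjusted p 0.00481). Ddit4, an inhibitor of mTOR signalling, changed by 0.72 ± 0.29, 0.83 ± 0.29 and 0.84 ± 0.29 in Nkx2-5 KO, Tbx5 KO and double KO, with adjusted p of 0.202, 0.176 and 0.0528. Its WT arrays spread over 1.31 log2 units, from 7.89 to 9.20.

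The secreted peptide adrenomedullin (Adm) and the membrane carbonic anhydrase Car9, which handles acid at the cell surface, complete the HIF targets. Car9 read 9.05, 8.89 and 8.67 on the Nkx2-5 KO arrays, 8.22, 8.56 and 8.22 on the Tbx5 KO arrays, 9.35 and 9.56 on double KO replicates 2 and 3, and 7.85, 8.29 and 7.81 on the WT arrays. Double KO replicate 1 was lower than these, among the Nkx2-5 KO values, and the double KO mean was 9.22 ± 0.42 (SD, n = 3). The arrays of both genotypes without Nkx2-5 lay above all others. Car9 rose by 0.89 ± 0.20 in Nkx2-5 KO (adjusted p 0.0270) and by 1.24 ± 0.20 in double KO (2.35-fold, adjusted p 0.000790), and changed by 0.35 ± 0.20 in Tbx5 KO (adjusted p 0.459). The Nkx2-5 KO call ended when WT replicate 1 or 3 or any 1 of the Nkx2-5 KO arrays was left out (adjusted p up to 0.117). Adm was not called, with 0.66 ± 0.27, 0.54 ± 0.27 and 0.77 ± 0.27 in Nkx2-5 KO, Tbx5 KO and double KO, the last at an adjusted p of 0.0533. Calls of 9 HIF targets in double KO held in every 1 of the 21 alternatives, namely Egln3, P4ha1, P4ha2, Kdm3a, Bnip3, Mxi1, Ndrg1, Ankrd37 and Car9, and none in Nkx2-5 KO did.

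**Figure D4:**
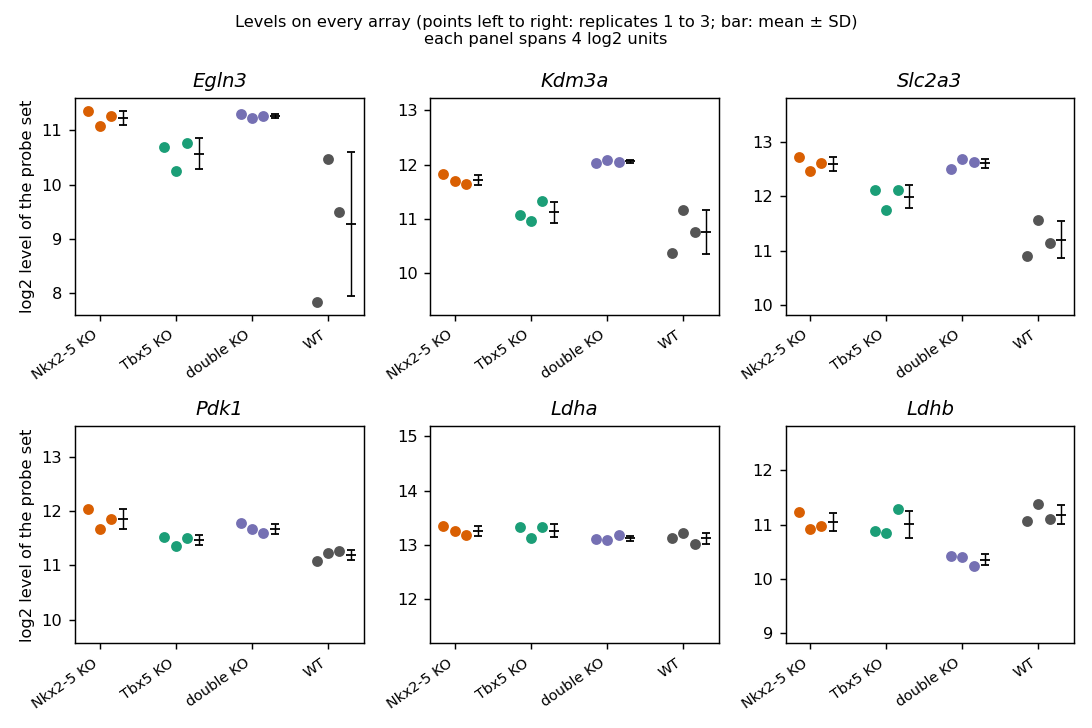
Levels of 6 genes (y axis, log2 units, 4 units in each panel) on every array, with Nkx2-5 KO, Tbx5 KO, double KO and WT from left to right and the mean ± SD beside the points (n = 3). Egln3 and Kdm3a are HIF targets, Slc2a3 and Pdk1 glycolysis genes that rose, Ldha stayed between 13.02 and 13.35 on all arrays, and Ldhb was lower in double KO.

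Both glucose transporters were higher in double KO. Slc2a3, a high-affinity glucose transporter, was the only gene of the 32 called in all 3 KO genotypes. It read 12.73, 12.47 and 12.61 on the Nkx2-5 KO arrays, 12.12, 11.75 and 12.11 on the Tbx5 KO arrays, 12.51, 12.69 and 12.63 on the double KO arrays, and 10.90, 11.57 and 11.15 on the WT arrays. All KO arrays lay above all WT arrays, and the Tbx5 KO arrays lay between the rest. Slc2a3 rose by 1.40 ± 0.16 in Nkx2-5 KO (2.63-fold, adjusted p 0.000708), by 0.79 ± 0.16 in Tbx5 KO (1.73-fold, adjusted p 0.0227) and by 1.40 ± 0.16 in double KO (2.64-fold, adjusted p 8.2e-05). The Tbx5 KO call ended when WT replicate 1 or 3 or Tbx5 KO replicate 1 or 3 was left out (adjusted p up to 0.0884). Slc2a1, the basal glucose transporter, read 13.53, 13.20 and 13.41 on the Nkx2-5 KO arrays, 13.44, 13.26 and 13.53 on the Tbx5 KO arrays, 13.57, 13.52 and 13.62 on the double KO arrays, and 13.14, 13.19 and 13.03 on the WT arrays. Here too no KO array overlapped WT, but only the double KO rise of 0.45 ± 0.11 was called (adjusted p 0.00828). It missed the threshold when each array was centred on its median (adjusted p 0.0588).

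Of the 7 upper enzymes measured, which carry glucose to the triose phosphates, 2 rose in Nkx2-5 KO hearts, 1 in Tbx5 KO hearts and 4 in double KO hearts, where 1.84%, 0.998% and 9.05% of all genes were called higher. Hk2, the inducible hexokinase, read 12.07, 11.84 and 11.97 on the Nkx2-5 KO arrays, 11.50, 11.13 and 11.76 on the Tbx5 KO arrays, 12.16, 12.05 and 12.09 on the double KO arrays, and 10.67, 11.52 and 10.94 on the WT arrays. It rose by 0.92 ± 0.19 in Nkx2-5 KO (adjusted p 0.0212) and by 1.06 ± 0.19 in double KO (2.08-fold, adjusted p 0.00180), while Tbx5 KO overlapped WT. The Nkx2-5 KO call ended without any 1 of WT replicates 1 and 3 and Nkx2-5 KO replicates 1 and 3 (adjusted p up to 0.0927). Its housekeeping relative Hk1 changed by -0.02, -0.03 and -0.20 in Nkx2-5 KO, Tbx5 KO and double KO, each with an SE of 0.12, and was not called. The Hk1 probe set is numbered among chromosome 14 genes although Hk1 lies on chromosome 10, and the other Hk1 probe set was not called either.

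Phosphofructokinase, the committed step, has 3 isoforms, and of these Pfkp alone was called. Pfkp read 12.35, 12.13 and 12.32 on the Nkx2-5 KO arrays, 12.38, 12.09 and 12.20 on the Tbx5 KO arrays, 12.52, 12.50 and 12.45 on the double KO arrays, and 11.58, 11.97 and 11.68 on the WT arrays. All KO arrays lay above WT and the double KO arrays above all others. Pfkp rose by 0.52 ± 0.12 in Nkx2-5 KO (adjusted p 0.0260) and by 0.74 ± 0.12 in double KO (1.67-fold, adjusted p 0.000647), and its change of 0.48 ± 0.12 in Tbx5 KO just missed the threshold (adjusted p 0.0530). The Nkx2-5 KO call ended without any 1 of WT replicates 1 and 3 and Nkx2-5 KO replicates 1 and 3 (adjusted p up to 0.119). Pfkl and Pfkm changed by 0.29 and -0.07 in Nkx2-5 KO, 0.19 and 0.16 in Tbx5 KO, and 0.06 and 0.00 in double KO, none called. Pfkfb3 makes the bisphosphate that activates phosphofructokinase. It read 11.01, 11.08 and 10.99 on the Nkx2-5 KO arrays, 10.40, 10.24 and 10.53 on the Tbx5 KO arrays, 11.38, 11.23 and 11.63 on the double KO arrays, and 9.34, 10.71 and 10.18 on the WT arrays. The genotypes without Nkx2-5 lay above WT and Tbx5 KO lay within WT. Pfkfb3 rose by 1.34 ± 0.25 in double KO (2.53-fold, adjusted p 0.00202) and changed by 0.95 ± 0.25 in Nkx2-5 KO (adjusted p 0.0508). Its relative Pfkfb4 was dim, with group means from 7.22 to 7.45, and was not called.

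The aldolases split the 6-carbon sugar, and Aldoc, the brain-type isoform, was 1 of the 2 genes called in Tbx5 KO. Aldoc read 9.67, 9.63 and 9.34 on the Nkx2-5 KO arrays, 10.20, 9.42 and 10.17 on the Tbx5 KO arrays, 10.04, 10.16 and 10.06 on the double KO arrays, and 8.49, 9.39 and 8.83 on the WT arrays. Tbx5 KO replicates 1 and 3 stood with double KO, and Tbx5 KO replicate 2 lay just above the highest WT array. Aldoc rose by 1.03 ± 0.23 in Tbx5 KO (2.04-fold, adjusted p 0.0362) and by 1.18 ± 0.23 in double KO (2.27-fold, adjusted p 0.00245), and changed by 0.64 ± 0.23 in Nkx2-5 KO (adjusted p 0.143). The Tbx5 KO call ended in 9 of the 21 alternatives, which included leaving out WT replicate 1 or 3, Nkx2-5 KO replicate 1, Tbx5 KO replicate 1 or 3, or double KO replicate 2 (adjusted p up to 0.132). Aldoa, the muscle isoform, rose by 0.25 ± 0.08 in double KO (adjusted p 0.0438). That call was lost in 13 of the 21 alternatives (adjusted p up to 0.370). Among these were the removal of any array of WT, double KO, Tbx5 KO replicates 1 and 2, or Nkx2-5 KO replicates 1 and 3.

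The lower enzymes, which carry the triose phosphates to pyruvate, moved little. Of the 5 measured only Pkm, pyruvate kinase, was called, with rises of 0.34 ± 0.09 in Nkx2-5 KO (adjusted p 0.0459) and 0.33 ± 0.09 in double KO (adjusted p 0.0161). Pkm averaged 13.03 ± 0.07 in Nkx2-5 KO, 13.03 ± 0.06 in Tbx5 KO, 13.01 ± 0.04 in double KO and 12.69 ± 0.10 in WT (SD, n = 3 each). The 3 KO means were alike and the Tbx5 KO change of 0.34 ± 0.09 was not called (adjusted p 0.0646). The Nkx2-5 KO call ended in 13 of the 21 alternatives (adjusted p up to 0.179), 10 of them the removal of a single array, any but WT replicate 2 and double KO replicate 3. The double KO call ended without WT replicate 1, without double KO replicate 1 and after centring arrays on their medians (adjusted p up to 0.162). The remaining changes from WT among Tpi1, Pgk1, Pgam1 and Eno3 lay between -0.24 and 0.23, none called. Pgk1 is X-linked, and its probe set is numbered among chromosome 12 genes. The Pgk1 probe set numbered on the X chromosome gave 0.21 ± 0.08 in Nkx2-5 KO and 0.19 ± 0.08 in double KO, also not called.

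At the end of the pathway, the kinase Pdk1 was higher in Nkx2-5 KO and in double KO, the lactate dehydrogenase subunit Ldhb was lower in double KO, and Ldha was not called. Pdk1, which phosphorylates and blocks pyruvate dehydrogenase, read 12.04, 11.67 and 11.86 on the Nkx2-5 KO arrays, 11.52, 11.36 and 11.51 on the Tbx5 KO arrays, 11.78, 11.66 and 11.59 on the double KO arrays, and 11.09, 11.24 and 11.27 on the WT arrays. All KO arrays lay above WT. Pdk1 rose by 0.66 ± 0.11 in Nkx2-5 KO (1.58-fold, adjusted p 0.00720) and by 0.48 ± 0.11 in double KO (1.39-fold, adjusted p 0.00642), and changed by 0.26 ± 0.11 in Tbx5 KO (adjusted p 0.259). Both calls held in every alternative. Ldha, the muscle-type subunit that favours lactate, read 13.35, 13.26 and 13.18 on the Nkx2-5 KO arrays, 13.33, 13.13 and 13.33 on the Tbx5 KO arrays, 13.12, 13.09 and 13.18 on the double KO arrays, and 13.13, 13.22 and 13.02 on the WT arrays. All groups overlapped WT. Its changes were 0.14 ± 0.09, 0.14 ± 0.09 and 0.00 ± 0.09, with 95% intervals of -0.07 to 0.34 in Nkx2-5 KO, -0.06 to 0.34 in Tbx5 KO and -0.20 to 0.21 in double KO.

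Ldhb, the heart-type subunit, read 11.24, 10.92 and 10.98 on the Nkx2-5 KO arrays, 10.88, 10.86 and 11.29 on the Tbx5 KO arrays, 10.43, 10.41 and 10.24 on the double KO arrays, and 11.06, 11.39 and 11.11 on the WT arrays. The double KO arrays lay below all others, and the remaining groups overlapped. Ldhb fell by 0.83 ± 0.14 in double KO against WT (adjusted p 0.000984), and was the only gene of the 32 called lower in any comparison. Its changes in Nkx2-5 KO (-0.14 ± 0.14) and Tbx5 KO (-0.18 ± 0.14) were not called. The Ldhb probe set is numbered among chromosome 19 genes while the gene lies on chromosome 6. The probe set of its own chromosome gave -0.59 ± 0.15 in double KO (adjusted p 0.0109). Slc16a3, the lactate exporter, was not called, with a change of 0.34 ± 0.10 in Tbx5 KO (adjusted p 0.116) and of 0.11 and 0.14 ± 0.10 in Nkx2-5 KO and double KO.

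Direct comparisons of the KO groups asked whether the second loss added to the first. Between double KO and Nkx2-5 KO, no HIF target was called (0 of 12 by limma, and 0 with an unadjusted p under 0.05), and 1 glycolysis gene, Ldhb, was lower (-0.69 ± 0.14, adjusted p 0.0132), where 1.01% of all genes were called higher and 4.55% lower. With an unadjusted p under 0.05, 1759 of all 19938 genes were higher and 2564 lower. Changes were above 0 for 10 of 12 HIF targets and for 11476 of all genes. Every double KO array lay above every Nkx2-5 KO array for 4 of 12 HIF targets and for 2475 of all genes. The median difference of the HIF targets was 0.11, and the 95% interval was -0.95 to 1.01 for Egln3, -0.02 to 0.70 for Kdm3a and -0.42 to 0.38 for P4ha1. The fit holds 1 spread per gene for all 4 groups, so these intervals also carry the WT spread. For Egln3 the SD was 1.33 in WT, 0.13 in Nkx2-5 KO and 0.04 in double KO. No HIF target was called in any of the 21 alternatives, 1 of which fitted only the arrays compared. The Ldhb call was lost without Nkx2-5 KO replicate 1 (adjusted p 0.0626) and with the probe set of its own chromosome (-0.49 ± 0.15, adjusted p 0.0698).

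Between double KO and Tbx5 KO, 4 HIF targets were called higher, and 2.87% of all genes were called higher and 7.86% lower. They were Kdm3a (0.94 ± 0.17, adjusted p 0.00314), Ndrg1 (0.89 ± 0.23, adjusted p 0.0250), Car9 (0.88 ± 0.20, adjusted p 0.0132) and P4ha1 (0.72 ± 0.18, adjusted p 0.0245). Of the glycolysis genes, Pfkfb3 (1.02 ± 0.25, adjusted p 0.0200) and Slc2a3 (0.61 ± 0.16, adjusted p 0.0262) were higher and Ldhb was lower (-0.65 ± 0.14, adjusted p 0.00958). Kdm3a alone held in every alternative, and Ldhb was lost only with the probe set of its own chromosome (adjusted p 0.0540). The HIF targets called numbered 1 without Tbx5 KO replicate 1 or double KO replicate 2, 2 without Tbx5 KO replicate 2 or double KO replicate 3, and 7 without WT replicate 2. Calls over all genes, 2139 with all arrays, were 1371, 1300, 1644, 2207 and 2091 in these fits, in that order. The glycolysis genes called numbered 1 without Tbx5 KO replicate 2 or double KO replicate 3, and 2 without Tbx5 KO replicate 1 or double KO replicate 2, against 3 with all arrays.

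Tbx5 KO set directly against Nkx2-5 KO gave no call among the 32 genes by limma, where 1.01% of all genes were called higher and 1.37% lower. With an unadjusted p under 0.05, 3 HIF targets and 4 glycolysis genes were lower in Tbx5 KO and 1 glycolysis gene was higher. At that cut 1353 of all 19938 genes were lower and 1165 higher. The nearest to the threshold were P4ha1 (-0.74 ± 0.18, adjusted p 0.0579) and Slc2a3 (-0.61 ± 0.16, adjusted p 0.0710). So the calls of 7 HIF targets in Nkx2-5 KO and 0 in Tbx5 KO do not show that the genotypes differ in those genes. Single arrays mattered here as well, since 2 HIF targets and 2 glycolysis genes were called without WT replicate 1, 2 and 1 without WT replicate 2, 1 HIF target without Tbx5 KO replicate 3 and 1 glycolysis gene without Nkx2-5 KO replicate 2. Calls over all genes, 476 with all arrays, were 484, 470, 371 and 428 in these fits, in that order.

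The non-additive term subtracts both single KO changes from the double KO change. No gene of the 32 was called for it by limma, where 0.0903% of all genes were called above 0 and 0.456% below. Its median was -0.25 over the HIF targets and -0.26 over the glycolysis genes, and 5 glycolysis genes, but 0 HIF targets, had an unadjusted p under 0.05, all below 0. At that cut 1131 of all 19938 genes were below 0 and 641 above. For Egln3 the term was -1.27 ± 0.64 (adjusted p 0.616) and for Slc2a3 -0.78 ± 0.22 (adjusted p 0.203). In Slc2a3 the 2 single KO changes of 1.40 and 0.79 thus stood beside a double KO change of 1.40. Without WT replicate 2, 1 glycolysis gene was called for the term, and 121 of all genes, against 109 with all arrays.

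**Figure D5:**
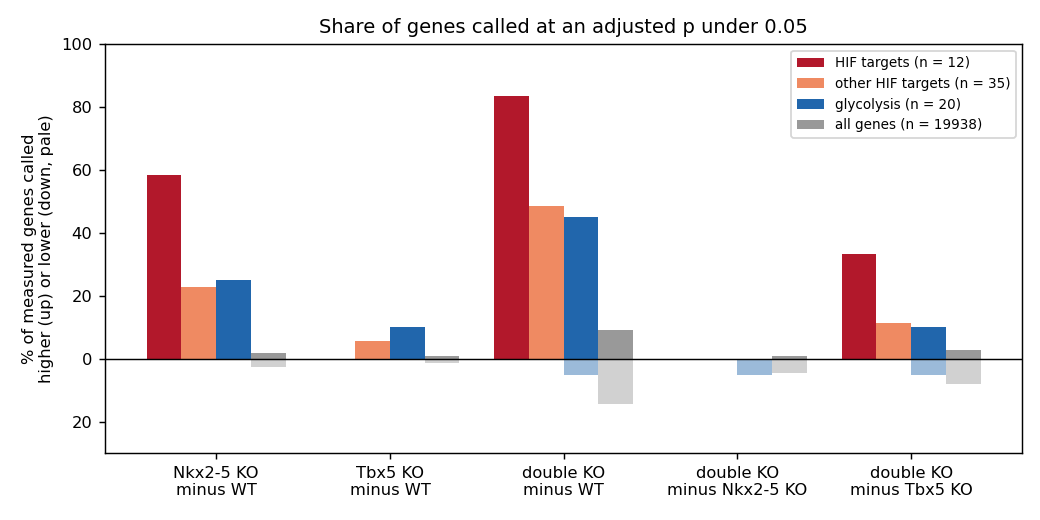
Share of measured genes called higher (upward bars) or lower (downward, pale bars) at an adjusted p under 0.05, in percent, for the 12 HIF targets, a list of 35 other HIF targets, the 20 glycolysis genes and all 19938 genes. The HIF targets reach 58.3% for Nkx2-5 KO, 0% for Tbx5 KO and 83.3% for double KO, against 1.84%, 0.998% and 9.05% of all genes.

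Other genes of the pathway were taken from lists. Of 35 further HIF targets measured, 8 rose in Nkx2-5 KO hearts, 2 in Tbx5 KO hearts and 17 in double KO hearts, and 0 fell in any of them. These are 22.9%, 5.71% and 48.6% of the list, beside 1.84%, 0.998% and 9.05% of all genes called higher. Igfbp3, which binds insulin-like growth factors, rose by 1.34 ± 0.31, 1.57 ± 0.31 and 1.62 ± 0.31 in Nkx2-5 KO, Tbx5 KO and double KO (adjusted p 0.0301, 0.0200 and 0.00231). Vegfa, the main signal for vessel growth, rose by 1.04 ± 0.16 in Nkx2-5 KO (adjusted p 0.00566) and by 1.19 ± 0.16 in double KO (adjusted p 0.000236). Cox4i2, a subunit of cytochrome oxidase used at low oxygen, rose by 0.74 ± 0.15, 0.78 ± 0.15 and 1.02 ± 0.15 in the same order of genotypes (adjusted p 0.0167, 0.0159 and 0.000369). In double KO, Bhlhe40, a transcriptional repressor, also rose by 1.47 ± 0.37 (adjusted p 0.0120) and Flt1, a VEGF receptor, by 1.09 ± 0.22 (adjusted p 0.00333). The mean over this list was lowest on WT replicate 1 (-0.24) and highest among WT on replicate 2 (0.28), the same arrays as for the 12 targets.

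The transcripts of HIF itself and of its regulators ran both ways. Of 14 HIF subunits and regulators measured, 1 rose and 1 fell in Nkx2-5 KO, 1 rose in Tbx5 KO, and 3 rose and 2 fell in double KO. In Nkx2-5 KO that is 7.14% in each direction, beside 1.84% higher and 2.59% lower over all genes, and in Tbx5 KO 7.14% higher, beside 0.998%. In double KO it is 21.4% higher and 14.3% lower, beside 9.05% and 14.4% of all genes, so the share that fell was near that of all genes. Hif1a fell by 0.38 ± 0.09 in Nkx2-5 KO (adjusted p 0.0319) and by 0.44 ± 0.09 in double KO (adjusted p 0.00359). HIF is known to be controlled mainly at the protein level, which arrays do not measure. Epas1, a second alpha subunit, rose by 0.63 ± 0.14 in Tbx5 KO (adjusted p 0.0322). Hif1an, a hydroxylase that blocks HIF activity, rose by 0.59 ± 0.15 in Nkx2-5 KO (adjusted p 0.0442), and Cited2, which competes with HIF for its coactivators, by 0.58 ± 0.10 in double KO (adjusted p 0.000932).

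Neighbouring branches of glucose use were counted in the same way. Of 19 other glycolytic isoenzymes, carriers and regulators, 0 rose and 1 fell in Nkx2-5 KO and likewise in Tbx5 KO, and 3 rose and 4 fell in double KO. In both single KOs that is 5.26% lower, beside 2.59% of all genes for Nkx2-5 KO and 1.31% for Tbx5 KO. In double KO it is 15.8% higher and 21.1% lower, beside 9.05% and 14.4% of all genes. Bpgm, which makes bisphosphoglycerate and is abundant in red cells, fell by 0.92 ± 0.23 in Nkx2-5 KO hearts, 1.01 ± 0.23 in Tbx5 KO hearts and 1.76 ± 0.23 in double KO (adjusted p 0.0453, 0.0427 and 0.000216). Of 6 erythroid markers, 3 were lower in double KO, as were 14.4% of all genes. Their log2 summed signal ran from 14.4 to 15.4 in Nkx2-5 KO, 14.7 to 14.8 in Tbx5 KO, 12.9 to 14.3 in double KO and 14.3 to 15.5 in WT, and the part of red cells in the Bpgm change was not tested. Pgam2, the muscle-type phosphoglycerate mutase, rose by 0.57 ± 0.09 in double KO (adjusted p 0.000874), and the lactate carrier Slc16a1 fell by 1.02 ± 0.29 (adjusted p 0.0239). Slc16a1 read 9.25, 8.96 and 10.42 on the double KO arrays, the last within the WT values of 10.32 to 10.73. In the pentose phosphate pathway, which draws glucose phosphate towards nucleotides, 2 of 7 genes fell in Nkx2-5 KO hearts, 0 in Tbx5 KO hearts and 6 in double KO hearts, where 2.59%, 1.31% and 14.4% of all genes were called lower. Taldo1, transaldolase, fell by 0.61 ± 0.13 in Nkx2-5 KO (adjusted p 0.0234) and by 1.11 ± 0.13 in double KO (adjusted p 0.000121). Rpe, an epimerase, fell by 0.90 ± 0.14 in double KO (adjusted p 0.000662).

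Markers of handling and of other cells moved with some of these results. The mean of 7 immediate early genes, which answer stress and handling within minutes, was 0.64, 1.21 and 0.92 on the Nkx2-5 KO arrays, -0.11, -0.21 and -0.02 on the Tbx5 KO arrays, 0.91, 1.48 and 0.95 on the double KO arrays, and -0.21, 0.17 and 0.04 on the WT arrays. They were called higher for 3 of 7 in Nkx2-5 KO, 0 of 7 in Tbx5 KO and 7 of 7 in double KO, beside 1.84%, 0.998% and 9.05% of all genes, and their part in the rise of the HIF targets was not tested. In Tbx5 KO the mean was 0.53 over the HIF targets and -0.11 over the immediate early genes. Of 3 trophoblast genes measured, Prl3d3 and Prl8a2 rose by 4.32 ± 0.35 and 3.15 ± 0.27 in Tbx5 KO, where 0.998% of all genes were called higher. The log2 summed signal of the list ran from 7.49 to 8.33 in Nkx2-5 KO, 10.7 to 11.2 in Tbx5 KO, 7.39 to 7.95 in double KO and 7.51 to 7.83 in WT. The part of such cells in the Tbx5 KO values of Slc2a3 and Aldoc was not tested. Of 8 markers of endocardium and endothelium, 4 were lower in double KO, beside 14.4% of all genes. Their log2 summed signal was 13.4 to 13.6 on the Nkx2-5 KO arrays, 13.0 to 13.3 on the Tbx5 KO arrays, 13.0 to 13.1 on the double KO arrays and 13.0 to 13.8 on the WT arrays. Their mean over genes, set against WT, was -0.39, 0.37 and 0.03 on the WT arrays, which is the WT order of the HIF targets. In double KO the list was split, since 4 of the 8 changes were above 0, with 0 called higher. The double KO mean was -0.36 over this list and 1.09 over the HIF targets. Of 6 neural markers, 1 was called higher in each single KO and 2 in double KO. These are 16.7%, 16.7% and 33.3% in Nkx2-5 KO, Tbx5 KO and double KO, beside 1.84%, 0.998% and 9.05% of all genes. Pax6, a neural transcription factor, averaged 9.12 ± 0.10 in Nkx2-5 KO, 8.39 ± 0.42 in Tbx5 KO, 9.27 ± 0.06 in double KO and 7.42 ± 0.04 in WT (SD, n = 3 each), and it was called higher in each KO genotype. Pax6 does not stand for the list, whose median change was 0.09, 0.18 and 0.38 in Nkx2-5 KO, Tbx5 KO and double KO. Nes, another of the 6, averaged 8.70, 8.37 and 8.30 there, against 8.72 in WT. Of 8 markers of foregut and visceral endoderm, 2 were called higher for Nkx2-5 KO, 1 for Tbx5 KO and 3 for double KO. Sox17 was called in all 3, and the shares of all genes called higher were 1.84%, 0.998% and 9.05%. Changes were above 0 for 6, 6 and 7 of the 8 markers in the same order. The list did not move as 1 in Nkx2-5 KO, where Ttr averaged 7.80 and Afp 7.18, against 8.38 and 7.58 in WT. Of 4 markers of proepicardium and epicardium, 0 were called in Nkx2-5 KO, 1 was lower in Tbx5 KO (Tbx18) and 3 were lower in double KO (Tbx18, Wt1 and Upk3b), beside 1.31% and 14.4% of all genes called lower in these genotypes. The part of these cell types in the changes of the HIF targets and glycolysis genes was not tested.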

How the data were processed

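Expression was measured on 12 arrays of dissected mouse hearts, 3 for each of 4 genotypes taken from the sample labels. Per the labels' protocols, RNA came from a PicoPure kit, NuGEN Ovation reagents amplified it and the NuGEN Encore module added biotin. The deposited values are log2 levels per probe set, 35557 in all, running from 3.21 to 14.7 with array medians of 8.05 to 8.25. For the software that summarized and normalized them, nothing is given in the sources used here. Pairwise correlations of arrays over all probe sets (not independent of each other) were 0.969 to 0.984 within groups and 0.958 to 0.981 between groups, and 0 pairs of arrays were identical. The number of arrays limits the precision, and p-values measure only the spread between these arrays.

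Genes were named from the platform annotation. Of the probe sets, 21789 had 1 symbol, 1621 several and 12147 none, and 21698 matched RefSeq (GRCm38.p6) by Entrez number. The brightest probe set was used for the 999 genes with several, 6 of them in the gene list studied here, and 19938 genes were tested without a filter. A model of 4 group means was fitted with limma 3.58.1 in R 4.3.3 (8 residual and 4.51 prior degrees of freedom), two-sided, with 7 comparisons. Tested on simulated data for Nkx2-5 KO against WT over 19938 genes, it recovered 99 of 100 genes changed by 2 log2 units and 83 of 100 changed by 1, with 7 false calls. The simulated noise was normal, independent between genes and arrays, and of equal spread in all 4 groups. The HIF targets had a median SD of 0.40 in WT and 0.07 in double KO, so these rates do not carry over to them. Tables and plots used matplotlib 3.10.9, numpy 2.4.6 and pandas 2.3.3 under Python 3.11.15.

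The members, the pathway and marker lists, and the tests were chosen with earlier results of these data known. Each array value is given for the 14 members with the smallest adjusted p and for Egln3, Ldha, Pdk1 and Slc2a1, some of which coincide, except for 1 array each of Ankrd37 and Car9, described in words. Gapdh, also named by the rule, had no probe set of its own. Of each other list, called genes with large changes are named. The 21 alternatives were another normalization or scaling, an intensity trend, array weights, fewer arrays, a replicate block, a filter on dim genes (25th percentile), other probe sets, and leaving out each array. The probe set of the gene's own chromosome was chosen after seeing the data.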

Additional observations from a re-analysis of the deposited data

How the results depend on the processing

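Of the 42 calls among the 32 genes and 7 comparisons, 19 held in all 21 alternatives, and 0 changed sign in any. Leaving out each array in turn gave 0 to 11 HIF targets called in Nkx2-5 KO against WT (7 with all arrays), 0 to 4 in Tbx5 KO (0), 9 to 12 in double KO (10), 1 to 7 in double KO against Tbx5 KO (4) and 0 to 2 in Tbx5 KO against Nkx2-5 KO (0). For glycolysis genes it gave 2 to 7 in Nkx2-5 KO (5), 0 to 3 in Tbx5 KO (2), 8 to 10 in double KO (10), 0 to 1 in double KO against Nkx2-5 KO (1), 1 to 4 in double KO against Tbx5 KO (3), 0 to 2 in Tbx5 KO against Nkx2-5 KO (0) and 0 to 1 for the non-additive term (0).

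Glycolysis genes called in Nkx2-5 KO were 3 with arrays centred on their medians, 3 with a replicate block, 3 with only the arrays compared, 8 with an intensity trend and 9 with array weights. HIF targets there were 4 with centring, 4 with only the arrays compared and 4 with the replicate block. Glycolysis genes in Tbx5 KO were 4 after quantile normalization, 1 with centring, 4 with a trend, 5 with weights, 0 with only the arrays compared and 1 with the replicate block. In double KO against Nkx2-5 KO they were 2 with only the arrays compared and 0 with the probe set of the own chromosome, and HIF targets in double KO against Tbx5 KO were 7 with only the arrays compared. In Tbx5 KO against Nkx2-5 KO, glycolysis genes were 1 with a trend, 3 with weights and 1 with only the arrays compared, and HIF targets were 1, 3 and 1, and 1 without dim genes. Weights gave 1 glycolysis gene for the non-additive term. The causes were not tested.

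Over all genes, deviations of same-numbered arrays of different groups correlated at -0.27 to 0.21, against -0.26 to 0.26 for other numbers. By this measure 0 of 12 arrays correlated best with its own number in every group. Such correlations cannot show whether smaller sets of genes follow the numbers. Replicate 2 was the highest array of its group for 6 of 7 immediate early genes in Nkx2-5 KO, double KO and WT. In Tbx5 KO it was highest for 1. Of 6 erythroid markers, replicate 2 was the lowest for 5, 4 and 6 in Nkx2-5 KO, double KO and WT, and for 0 in Tbx5 KO. Pairing within these lists was not tested. Centring shifted every double KO change by -0.12. It turned calls higher and lower over all genes to 209 and 646 in Nkx2-5 KO (367 and 517 as deposited), 131 and 294 in Tbx5 KO (199 and 262), 779 and 3769 in double KO (1804 and 2868), 117 and 1161 in double KO against Nkx2-5 KO (202 and 907) and 302 and 1917 in double KO against Tbx5 KO (572 and 1567). Array weights raised the calls over all genes, with 2132 against 884 in Nkx2-5 KO, 933 against 461 in Tbx5 KO, 2481 against 1109 in double KO against Nkx2-5 KO, 1424 against 476 in Tbx5 KO against Nkx2-5 KO and 343 against 109 for the non-additive term, which the block lowered to 61. Only the arrays compared gave 570 in double KO against Nkx2-5 KO. Leaving out 1 array gave as few as 169 in Nkx2-5 KO, 212 in Tbx5 KO, 521 in double KO against Nkx2-5 KO, 254 in Tbx5 KO against Nkx2-5 KO and 48 for the non-additive term (up to 264), and 1300 against 2139 in double KO against Tbx5 KO. For Nkx2-5 KO, Tbx5 KO and double KO against Tbx5 KO this moved the count by a larger factor than weights did.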
